A study of Homo sapiens with 4 samples.

Results

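The regions described here are the open-chromatin regions at 10 antioxidant genes of the NRF2 pathway in A375, a human melanoma line long kept in culture. Regions were taken if they overlapped the RefSeq GRCh38 span of NFE2L2, KEAP1, SLC7A11, GCLC, GCLM, TXNRD1, SRXN1, HMOX1, NQO1 or OSGIN1, each span being extended by 10 kb on both sides. This rule used position only and gave 51 of the 125986 regions in the authors' deposited table. The assay was ATAC-seq, which reads out where Tn5 transposase can insert into chromatin, in cells given 1 mM octanoate, a medium-chain fatty acid, and in cells given its vehicle, isopropanol. Both groups were A375 cells grown in DMEM with serum and treated for 48 h, and the labels name no genetic change in either. Each group had 2 libraries, and nothing in the labels says whether these came from separate cultures, so p-values measure the spread between libraries, which may be technical.

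NRF2, the protein of NFE2L2, is a transcription factor that KEAP1 holds for destruction through a CUL3 ubiquitin ligase. Oxidants and electrophiles modify KEAP1, NRF2 then accumulates, pairs with small MAF proteins and binds antioxidant response elements in the promoters and enhancers of its targets. The targets supply glutathione, recycle thioredoxin and peroxiredoxins, and clear heme and quinones. In melanoma the pathway is known for its part in tolerance of oxidative stress.

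The antioxidant response element is shown first because it is the sequence that NRF2 binds at its targets. Its core, TGACNNNGC, was searched on both strands in windows of 300 bases, from 250 before to 50 after each RefSeq start (GRCh38.p14). The AP-1 element TGANTCA was searched too, since both begin with the same letters, and 0 of the matches in the members' windows overlapped one of the other kind. Promoter windows were held for 8 of the 10 genes, the others being HMOX1 and SLC7A11. These genes had 11 windows, since NFE2L2, KEAP1 and TXNRD1 have 2 starts each. The core lay in 4 of the 11, belonging to GCLM, KEAP1 and TXNRD1, and in 13.8% of the 22198 windows of protein-coding genes. Matches are letters only and do not show that NRF2 bound. Bases outside these windows were not searched, so a gene without a match may carry the element elsewhere. The 6 matches are given here 5′ to 3′ in the orientation of the core, with 10 flanking bases and the core in capitals:
GCLM, 34 bases before the start, chr1:93909456-93909464: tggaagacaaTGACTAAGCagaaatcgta
KEAP1, 31 bases before the second start, chr19:10502794-10502802: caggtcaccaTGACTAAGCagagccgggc
KEAP1, 54 bases before the second start, chr19:10502817-10502825: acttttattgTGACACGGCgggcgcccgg
TXNRD1, 102 bases before the inner start, chr12:104286930-104286938: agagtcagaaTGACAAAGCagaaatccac
TXNRD1, 99 bases before the upstream start, chr12:104215680-104215688: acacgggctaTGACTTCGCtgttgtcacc
TXNRD1, 8 bases before the upstream start, chr12:104215771-104215779: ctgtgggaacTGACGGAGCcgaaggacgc
The first GCLM and KEAP1 matches share the core TGACTAAGC. The GCLM, KEAP1 and inner TXNRD1 matches lay inside a listed open region, and both matches at the upstream TXNRD1 start lay outside every listed region.

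A pair of promoters, those of GCLM and of the inner TXNRD1 start, is shown in full because each lies in 1 open region and carries 1 core. The 250 bases before the start are printed on the gene's strand, with the core in capitals. It reads as the reverse complement of TGACNNNGC in both. The windows are chr1:93909431-93909680 (minus strand) and chr12:104286782-104287031 (plus strand).
GCLM: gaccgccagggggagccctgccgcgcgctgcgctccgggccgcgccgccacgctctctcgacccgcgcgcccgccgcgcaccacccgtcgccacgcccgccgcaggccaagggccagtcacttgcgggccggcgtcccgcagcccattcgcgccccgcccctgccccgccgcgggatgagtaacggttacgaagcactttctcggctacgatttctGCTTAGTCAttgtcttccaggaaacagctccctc
TXNRD1 inner start: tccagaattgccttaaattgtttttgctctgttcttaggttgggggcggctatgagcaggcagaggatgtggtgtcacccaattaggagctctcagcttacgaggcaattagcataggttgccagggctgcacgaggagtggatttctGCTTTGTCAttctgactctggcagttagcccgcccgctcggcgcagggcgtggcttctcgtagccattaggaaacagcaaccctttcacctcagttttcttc
The OSGIN1 window held the AP-1 letters once, 97 bases before the start (chr16:83953143-83953149), and 6.15% of the windows of protein-coding genes held them:
OSGIN1: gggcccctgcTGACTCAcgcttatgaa

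The 2 kinds of measurement available per region were the mean normalized read count over all 4 libraries and the log2 fold change of octanoate over vehicle with its standard error. The table gives no value for a single library, so the spread of the libraries is seen only through these standard errors. Group levels quoted below were computed from the deposited mean and fold change as if the groups' means differed by exactly that fold, and are called implied levels. The depth of a single library is unknown here, and the exons and introns of the genes were not annotated in the tables used. An open region in fewer cells and a less open region in each cell cannot be told apart in such bulk data. The authors' adjusted p covered 11185 regions, called tested regions, whose lowest mean was 63.8. Of the 51 member regions 9 were tested and 42 were not. The whole table was shifted above 0: the median log2 fold change was 0.23 over nuclear regions and 0.19 over tested ones. For this reason the start and span-end regions, and the regions with an unadjusted p under 0.05, are also given relative to the tested median. As a limited look at the cell line, MITF had 3 and DCT 2 regions within 1 kb of a start. TYR and MLANA had 0, and so had PTPRC of white blood cells and ALB of hepatocytes. For SOX10, PMEL, EPCAM, CDH1 and PECAM1 no start was held, so they could not be looked up. These counts do not identify the line.

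No member region passed the authors' test. The DESeq2 adjusted p was under 0.05 in 0 of the 9 tested member regions, against 1.02% of all tested regions (114 of 11185). At an unadjusted p under 0.05, 1 of the 9 was higher and 0 were lower, where all tested regions gave 14.8% and 0.107%. Over all 51, 1 region was higher and 1 lower at that level, against 3.58% and 0.179% of the whole table. Both belonged to TXNRD1.

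The members' values lay around 0. Their median log2 fold change was 0.060, with 33 of 51 regions above 0 and 18 below, beside a median of 0.23 and 72.1% above 0 in all nuclear regions. In the 9 tested regions the median was 0.14 with 8 above 0, beside 0.19 and 85.7% in all tested regions. With the tested median subtracted, 7 of the 9 tested and 35 of the 51 regions were below 0. By definition this median splits the tested regions evenly, with 5592 of 11184 nuclear ones above it. In the whole table a region lying 0.0025 above it stood at the 46th percentile. These are descriptions, and the differences from the whole table were not tested. The median standard error of the 51 was 0.61, so a typical single region needed more than a doubling to reach an unadjusted p under 0.05.

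**Figure D1:**
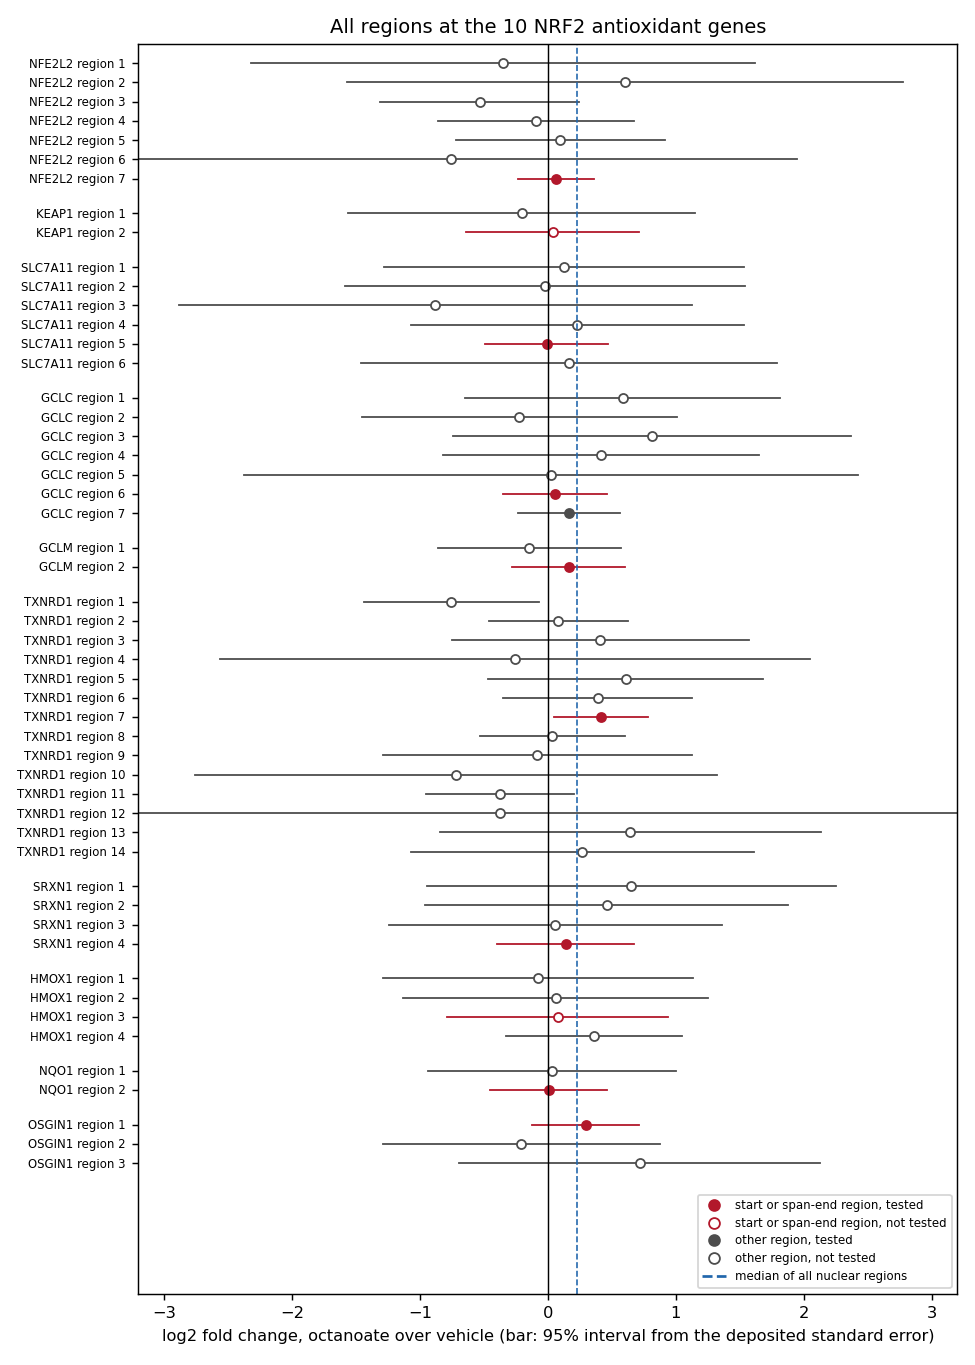
Log2 fold change of octanoate over vehicle (x axis) for each of the 51 member regions (rows, numbered along the chromosome within each gene), with 95% intervals computed from the deposited standard errors and clipped at the axis limits. Start and span-end regions are red, filled points were tested by the authors, the dashed line is the median of all nuclear regions, and 49 of the 51 intervals span 0.

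In 8 of the 10 genes the region at a start or span end was the strongest. Each of the 8 genes with promoter windows had 1 region within 1 kb of a RefSeq start. The median log2 fold change over these 8 was 0.10, all 8 lay above 0, and 7 were tested. Over all 12032 regions at starts of protein-coding genes the median was 0.14 and 75.5% lay above 0. HMOX1 and SLC7A11, for which no start position was held, were represented by the region over an end of their span (chr22:35381096 and chr4:138242349). With the tested median subtracted, 8 of these 10 regions were below 0. Of the 5697 tested start regions of all protein-coding genes, 2444 were above 0 on that scale. NFE2L2 was then at -0.12, KEAP1 at -0.15, SLC7A11 at -0.20, GCLC at -0.13 and GCLM at -0.023. SRXN1 was at -0.047, HMOX1 at -0.11 and NQO1 at -0.18, while TXNRD1 at 0.23 and OSGIN1 at 0.11 stayed above 0. Relative to the median of all start regions instead, GCLM at 0.027 and SRXN1 at 0.0032 were above 0 as well. Among these 10 regions the level per kb of region, averaged over both groups, ran from 91.8 normalized reads per kb at NQO1 and 84.7 at NFE2L2 down to 37.7 at KEAP1 and 31.1 at HMOX1. NQO1 exceeded 88.1% and HMOX1 22.1% of all start regions on this scale. Since no library values are given, it cannot be said which neighbours in this order differ beyond their spread.

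**Figure D2:**
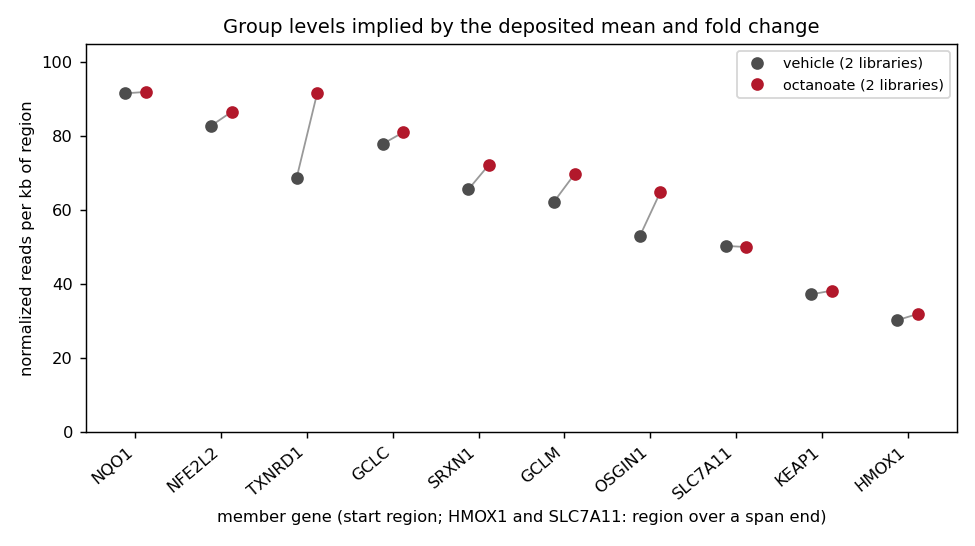
Implied levels in normalized reads per kb of region (y axis, from 0) for vehicle and octanoate at the start or span-end region of each member gene (x axis, ordered by mean level). No error is drawn because the table has no library values. The pairs lie close together except at TXNRD1 (68.8 and 91.8) and, less so, OSGIN1 (53.0 and 65.0).

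At the starts of the factor and its sensor both 95% intervals spanned 0. The region over both NFE2L2 starts (chr2:177263323-177265695) was the strongest of the 51, with a mean of 201 in the authors' deposited table. Its implied levels were 197 normalized reads in vehicle and 206 in octanoate. In the authors' deposited table the start region stood at 0.064 on the log2 scale (standard error 0.15, DESeq2 adjusted p 0.875), and the 95% interval of -0.23 to 0.36 leaves out a doubling and a halving. The NFE2L2 window held 6 other regions, none of them tested, with log2 fold changes from -0.75 to 0.60. One of them, 23.8 kb inside the gene (chr2:177239672-177240378), had an implied level of 33.0 in vehicle and 22.8 in octanoate, and the authors' deposited table gave -0.53 (standard error 0.40, unadjusted p 0.179). KEAP1, which has 2 RefSeq starts, had 1 region over the inner of them (chr19:10502299-10503276). That region holds both KEAP1 cores printed above. Its implied levels were 36.4 and 37.4, and the authors' deposited table gave 0.038 (standard error 0.35, unadjusted p 0.912). The other KEAP1 region, over the far end of the gene, had a mean of 9.62 and a log2 fold change of -0.20. Over the 9 regions of both genes 4 were above 0 and the median was -0.093.

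At the starts or span end of the 3 genes of glutathione supply every 95% interval spanned 0. SLC7A11 encodes the cystine importer, GCLC the catalytic and GCLM the modifier subunit of the ligase that makes the first step of glutathione synthesis. The span-end region of SLC7A11 (chr4:138241400-138242836) had implied levels of 72.3 in vehicle and 71.9 in octanoate, and stood at -0.0090 (standard error 0.25, adjusted p 0.991) in the authors' deposited table. It was the 1 tested member region below 0. The 5 other SLC7A11 regions had means under 11 and values from -0.88, the lowest of the 51, to 0.23. At the GCLC start (chr6:53544189-53545460) the implied levels were 99.1 and 103, and the authors' deposited table gave 0.057 (standard error 0.21, adjusted p 0.926). GCLC had a still stronger region 2.48 kb before its start (chr6:53547581-53548580), at 110.3 normalized reads per kb. Its value in the authors' deposited table was 0.17 (standard error 0.20, adjusted p 0.734). The 5 weaker GCLC regions ran from -0.22 to 0.81, the highest of the 51. For the GCLM start (chr1:93908722-93910006), whose core is printed above, implied levels were 80.1 and 89.7. The authors' deposited table gave it 0.16 (standard error 0.22, adjusted p 0.767). In this group 10 of 15 regions were above 0, the median was 0.13, and the upper bound of the 95% interval at the 3 starts or span ends was at most 0.60. The second GCLM region, at -0.14, lay within 1 kb of the start of DNTTIP2, a neighbouring gene, and cannot be given to GCLM alone.

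TXNRD1 held both regions with an unadjusted p under 0.05, and they had opposite signs. The gene encodes thioredoxin reductase, which keeps thioredoxin reduced, and has 2 RefSeq starts 71.3 kb apart. The region over the inner start (chr12:104286077-104287782), which holds the core printed above, had implied levels of 117 in vehicle and 157 in octanoate, a 1.33-fold difference. The authors' deposited table put it at 0.42 on the log2 scale (standard error 0.19, unadjusted p 0.0268, adjusted p 0.26), so it did not pass. With the tested median subtracted it was 0.23 with an unadjusted p of 0.222. The other region lay 1.1 kb before the upstream start (chr12:104213806-104214679). It had implied levels of 46.3 in vehicle and 27.5 in octanoate. The authors' deposited table put it at -0.75 on the log2 scale (standard error 0.35, unadjusted p 0.0304), and its mean of 36.9 was too low for an adjusted p. With the tested median subtracted it was -0.94, with an unadjusted p of 0.0069. At that setting 0.604% of all regions were lower and 1.08% higher at an unadjusted p under 0.05, and the adjusted threshold of 0.05 was passed by 0.0536% of tested regions and by 0 members. No region lay within 1 kb of the upstream start itself. Whether the 2 regions differ from each other was not tested.

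The other 12 TXNRD1 regions did not follow 1 direction. A region 3.49 kb after the upstream start had 0.082, and one 1.45 kb after the inner start had 0.035, in the authors' deposited table. The 4 regions before the inner start that also lie in the span of TXNRD1-AS1, a noncoding gene, had values of 0.41, -0.26, 0.61 and 0.39 in the order of position. A region 32.9 kb after the inner start (chr12:104319899-104320618) had implied levels of 56.9 and 43.9, and a value of -0.37 (standard error 0.29, unadjusted p 0.204) in the authors' deposited table. The 5 remaining regions, with means under 12, were at -0.081, -0.72, -0.38, 0.64 and 0.27 in the order of position. With the median of all nuclear regions subtracted, 2 of the 51 member regions had an unadjusted p under 0.05 and both were lower in octanoate. They were the region before the upstream start (-0.98, p 0.00474) and the region 32.9 kb after the inner start (-0.60, p 0.0403), while the inner start was at 0.19 (p 0.32). At that setting 0.809% of all regions were lower and 0.813% higher. Over the 14 regions 8 were above 0 and the median was 0.058.

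**Figure D3:**
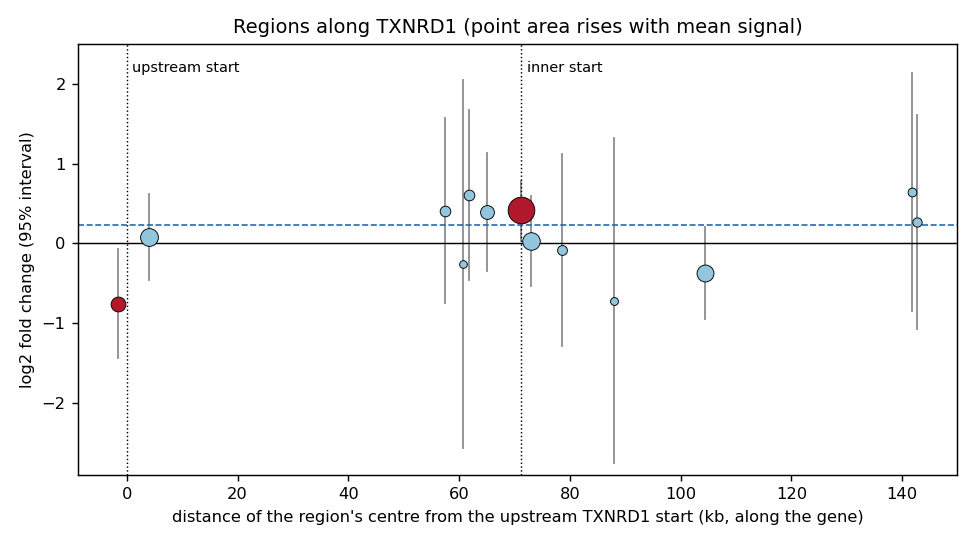
Log2 fold change with 95% intervals (y axis) of TXNRD1 regions against the distance of their centre from the upstream start in kb (x axis). Dotted lines mark both starts, the dashed line the median of all nuclear regions, red the regions with an unadjusted p under 0.05 (-0.75 and 0.42), and 1 region with a mean of 0.993 and a standard error of 3.44 is left out.

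SRXN1, NQO1 and OSGIN1 had 1 tested region each, and 0 of these 3 passed, while 0 of the 4 HMOX1 regions were tested. SRXN1 encodes sulfiredoxin, which restores over-oxidized peroxiredoxins, and its start region (chr20:652796-653763) had implied levels of 63.5 and 70.0. The authors' deposited table gave it 0.14 (standard error 0.27, adjusted p 0.846). The 3 regions beyond its end were at 0.65, 0.46 and 0.057 with means under 11. HMOX1 encodes heme oxygenase 1, which breaks down heme. Its span-end region (chr22:35380811-35381535) had implied levels of 21.9 and 23.1, and the authors' deposited table gave 0.079 (standard error 0.44, unadjusted p 0.858). The 95% interval was -0.79 to 0.94, and a value of 0.86 in either direction was needed for an unadjusted p under 0.05. Of the flanking regions, 2 were at -0.079 and 0.060, and the strongest, at 0.36, lay inside the neighbouring gene MCM5. NQO1 encodes a quinone reductase, and its start region (chr16:69726227-69727117) had implied levels of 81.6 and 82.0. It stood at 0.0062 (standard error 0.23, adjusted p 0.993) in the authors' deposited table, with a 95% interval of -0.45 to 0.46. A weaker region 2.36 kb inside NQO1 was at 0.031. OSGIN1 encodes an oxidative stress-induced growth inhibitor, and its start region (chr16:83952647-83954289), which holds the AP-1 letters printed above, had implied levels of 87.0 and 107. The authors' deposited table gave it the second highest value among member starts, 0.29 (standard error 0.21, adjusted p 0.528). The other OSGIN1 regions were at -0.21 within the gene and 0.72 beyond its end, the latter inside NECAB2.

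**Figure D4:**
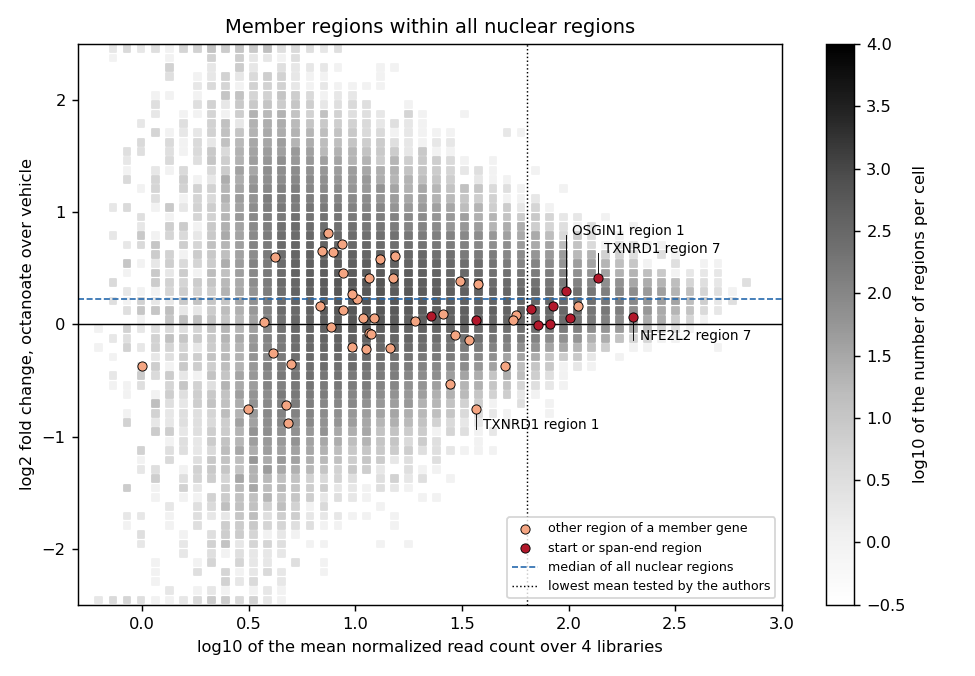
Log2 fold change (y axis, clipped at 2.5 either way) against log10 of the mean normalized read count (x axis) for all nuclear regions (grey squares, darker for more regions) and the 51 member regions (points). Of the 10 start and span-end regions, 8 lie right of the lowest tested mean (dotted line), with TXNRD1 region 7 at 0.42 as the highest, the dashed line is the median of all nuclear regions, and the wide scatter of other member regions is at low counts.

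Position within the gene split the members as follows. The 24 regions meeting spans, apart from start regions and the HMOX1 and SLC7A11 span-end regions, had a median of -0.052. Of these, 11 were above 0. The 17 in the flanks had 0.17 with 13 above 0. Their standard errors were large, with medians of 0.62 and 0.68, and 0 of the 24 were tested. The median at the 8 starts minus that of the other regions of the same genes was 0.067. The start regions of all protein-coding genes minus all other nuclear regions, wherever these lay, gave -0.11, which is not a like comparison. With start regions taken within 3 kb, the members' difference was 0.0039. This difference has no error here, since no library values are given. Of the 51 regions 4 also lay in the span of another protein-coding gene (DNTTIP2, MCM5, NECAB2 and EID3).

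The wider pathway list, which holds 9 partners and regulators and 23 other genes listed as targets, gave 112 regions at 31 genes, GPX2 having none. Of these, 19 were tested in the authors' deposited table. Their DESeq2 adjusted p was under 0.05 in 0 of the 19, and so was their unadjusted p, where 14.8% of all tested regions were higher and 0.107% lower at an unadjusted p under 0.05. Over all 112, 3 were higher and 0 lower at that level, against 3.58% and 0.179% of the whole table. Values were above 0 in 87 of 112 (77.7%, against 72.1% of all nuclear regions), with a median of 0.18. The median was also 0.18 in the 31 regions of partners and regulators and in the 81 of the listed targets. The 3 lowest p-values belonged to untested regions inside NFE2L3, a factor related to NRF2 (0.72, unadjusted p 0.0242), beside MAFK, a small MAF partner (0.77, unadjusted p 0.0318), and inside CUL3, the ligase scaffold (0.78, unadjusted p 0.0437), in the authors' deposited table. Relative to the tested median they were at 0.54 (p 0.0945), 0.58 (p 0.104) and 0.59 (p 0.125). Then 0 of the 112 regions had an unadjusted p under 0.05, where 1.08% of all regions were higher and 0.604% lower. The starts of the other small MAF genes stood at -0.34 for MAFG (unadjusted p 0.227) and -0.38 for MAFF (unadjusted p 0.255) in the authors' deposited table. With the median of all nuclear regions subtracted, the MAFG start was at -0.56 (p 0.0419). It was the 1 region of the 112 with an unadjusted p under 0.05 at that setting. Of all regions 0.809% were lower and 0.813% higher at that level. SQSTM1, whose protein p62 binds KEAP1, had 3 tested regions in the authors' deposited table, at 0.40, 0.28 and 0.23, with unadjusted p-values from 0.107 to 0.113. Relative to the tested median they were at 0.21, 0.091 and 0.044, with p-values of 0.401, 0.601 and 0.757. Of these, 1 also lay in LTC4S and 1 in MGAT4B. At the start of BACH1, a repressor that competes with NRF2 for the same elements, the authors' deposited table gave -0.039 (adjusted p 0.95).

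**Figure D5:**
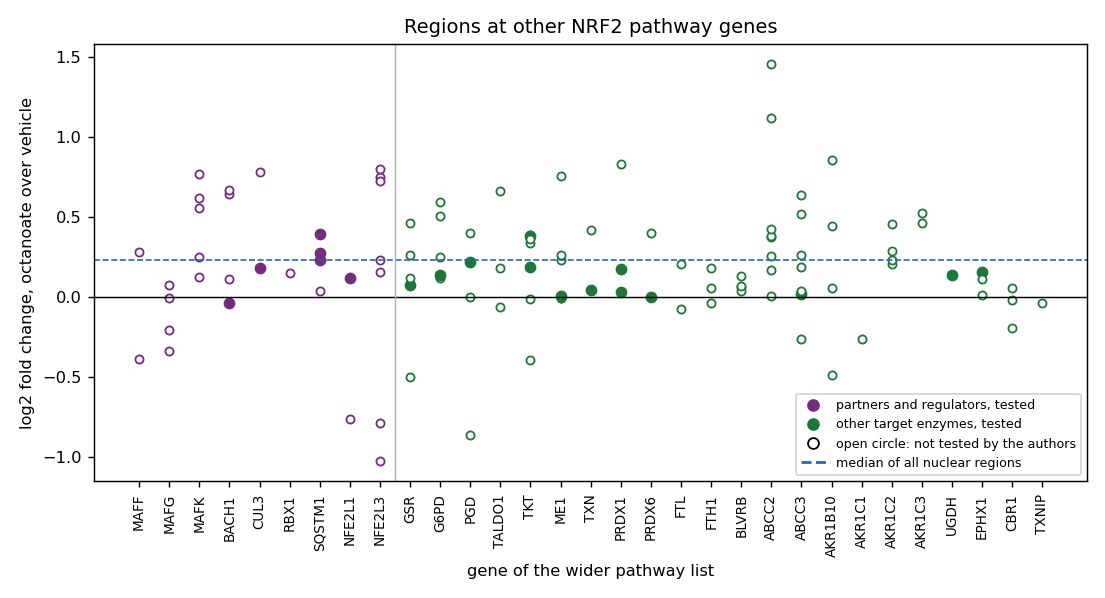
Log2 fold change (y axis) of each region at 31 other pathway genes (x axis). Partners and regulators are left of the grey line and the listed targets, labelled target enzymes, right of it. Filled points were tested by the authors and lie between -0.039 and 0.40, and the dashed line is the median of all nuclear regions.

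Start regions were also split by the element itself over all protein-coding genes, a description added after the values were seen. The 1919 regions meeting a window that held TGACNNNGC had a median of 0.14 on the log2 scale, and the 9172 regions meeting only windows without it had 0.13. For TGANTCA the medians were 0.19 in 681 regions and 0.13 in 10410. In tested regions alone the TGANTCA medians were 0.18 in 268 and 0.16 in 5377. Those for TGACNNNGC were then 0.16 in 1025 and 0.16 in 4620. Other counting rules also left the members without a call. An adjusted p under 0.1 was met by 0 of the 9 and 2.98% of all tested regions, and Benjamini-Hochberg adjustment over the whole table by 0 of the 51 and 0.0198% of all regions.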

How the data were processed

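ATAC-seq was done on 4 libraries of A375 cells, 2 per group, grouped by title. The deposited table holds the comparison made by the authors with DESeq2, per the file headers. The authors' signal value is a mean normalized read count over the libraries. Log2 fold changes, with standard errors, were deposited too. A score (Wald statistic), a p-value and an adjusted p-value complete the deposited row. The submitters' processing notes name Trim Galore, cutadapt, FastQC, Bowtie2, Picard, MACS2, featureCounts, DESeq2, bedtools 2.29.1 and build hg38, without roles. Whether reads were shifted for Tn5, how regions were merged and how libraries were scaled are not given in the sources used here. The scaling could move every log2 fold change by a constant, and the other steps could change counts region by region.

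Table starts, counted from 0, were written from 1. Genes and starts came from RefSeq (GRCh38.p14). An adjusted p listed as 1 below a mean of 63.8 was treated as not tested. The deposited adjusted p equalled Benjamini-Hochberg over the 11185 tested regions within 1.7e-14. Intervals at 95% are the fold change and its standard error under a normal distribution. Centred p-values used the same errors. The overlap, adjustment and centring code was tested on simulated data (Python 3.11.15, pandas 2.3.3, scipy 1.17.1).

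Named regions were all members' start regions and strongest regions, the 5 with the smallest p and the 3 lowest with at least the median signal of all regions, and for the wider list the 3 smallest p. SQSTM1, BACH1, MAFG, MAFF and some further regions of the members were named after their values were seen. The members and lists were chosen with earlier results of these data known.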

Additional observations from a re-analysis of the deposited data

How the results depend on the processing

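The count of 0 member regions past the threshold was 0 under each of the 5 alternatives, which were Benjamini-Hochberg over all regions, an adjusted p under 0.1, centring on the tested median, spans with no extension and spans extended by 50 kb. The 2 regions with an unadjusted p under 0.05 became 1 after centring on the tested median and 1 with no extension, since the upstream TXNRD1 region lies outside the span, and 3 with 50 kb. With the median of all nuclear regions subtracted there were 2, both lower, the inner TXNRD1 start giving way to another TXNRD1 region. Centring turned the medians, because the subtracted medians exceed them: that of the members from 0.060 to -0.17 (all nuclear regions) or -0.13 (tested regions), that of tested members from 0.14 to -0.047, that of member starts from 0.10 to -0.035 (all gene starts) and that of the wider list from 0.18 to -0.051. The members' median was 0.14 in tested regions alone and 0.15 with the strongest region of each gene, 0.033 with no extension, 0.089 with 50 kb, and 0.057 to 0.069 when each gene was left out. The median of tested members was 0.079 with 50 kb. The start median was 0.061 within 3 kb and 0.072 with the span-end regions of HMOX1 and SLC7A11, an alternative chosen after seeing the data. The start difference of 0.067 became 0.0039 within 3 kb, where 4 more regions count as start regions. The cause of the other shifts was not tested. A value was counted as moved from 0.05 log2 units.

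No paired analysis was possible because every deposited value combines the libraries. Leaving out a replicate, another normalization and other count tests were therefore not run.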
